A study of Mus musculus with 12 samples.

Results

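The nuclear-encoded subunits of the respiratory chain were taken from the array table by gene symbol. A member is a gene of which the symbol starts with Nduf (but not Ndufaf), Uqcr, Cox4i, Cox5, Cox6, Cox7, Cox8 or Atp5, or is Sdha, Sdhb, Sdhc, Sdhd, Cyc1 or Cycs. Of 13556 genes with a transcript cluster (the array's unit of measurement) annotated with only 1 symbol, 77 were members, measured by 90 clusters, and the cluster with the highest mean over all arrays stood for each gene. By complex, 32 belonged to complex I, 4 to complex II, 8 to complex III, 15 to complex IV and 17 to complex V, and Cycs is cytochrome c. Ndufa4, Ndufa4l2 and Cox7a2l were counted with complex IV. A further 10 clusters that carry a matching symbol together with others were left out.

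RNA of TSEC, an immortalized cell line from mouse liver sinusoidal endothelium (LSEC), was hybridized to 12 Mouse Gene 2.0 ST arrays, and all groups were of this same line. Media was the untreated control, FFA received 0.66 mM oleic acid and 0.33 mM palmitic acid, INT-767 received 30 µM of that compound, which activates the bile acid receptors TGR5 and FXR, and FFA+INT-767 received both, with 3 arrays in each group and 8 hours of treatment per the labels. The study's methods give another dose and time for fatty acids, and which applies is unknown. Labels speak of biological replicates and the methods of triplicate wells of this 1 line, so the p-values reflect a spread between arrays that may not be that of independent cultures. Part of this spread was common to same-numbered arrays of different groups (r = 0.1971 to 0.5351 for deviations from group means). Whether it is technical or biological was not tested.

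Values are log2 expression levels as the authors computed them, and a difference of group means in log2 units is written as log2. Array medians lay between 5.761 and 5.872, and 21150 to 22137 clusters per array were over 4.5, the study's limit for a present gene. Same-numbered arrays of different groups shared deviations, so values that differ between replicate numbers are given beside the treatment comparisons. Of 12 endothelial markers looked up, 4 were measured, with a mean level of 4.62 to 5.07 across arrays. Egfl7, a protein secreted by endothelium (5.10 to 5.58), and the junction protein Esam (4.69 to 5.99) were over that limit on all arrays, and the VEGF receptor Kdr (4.91 or less) and the co-receptor Eng (4.06 to 4.53) were not. Markers of the sinusoidal type were measured for 2 of 8 genes, Gata4 (6.30 to 6.86) and Mrc1 (4.14 to 4.65), of hepatocytes for 4 of 8, of macrophages for 3 of 7 and of lymphocytes for 0 of 6. The hepatocyte marker Apoa1 (5.12 to 7.64) and the macrophage markers Cd14 (5.91 to 7.07) and Cd68 (6.10 to 6.56) exceeded Esam at their highest. Alb, Ttr, Ass1 and Clec4f stayed at 4.71 or less. A gene not measured may have been left out by the limit of 4.5 or for a shared cluster. Stellate cell and fibroblast markers were measured for 7 of 8 genes, among them Acta2 (7.88 to 11.5) and Col1a1 (8.21 to 10.5), with a list mean of 7.23 to 8.95 on the arrays numbered 1, 5.88 to 6.49 on those numbered 2 and 6.48 to 6.88 on those numbered 3.

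The respiratory chain passes electrons from NADH (complex I) and succinate (complex II) through ubiquinone to complex III, then through cytochrome c to complex IV, which reduces oxygen. Proton pumping by complexes I, III and IV drives ATP synthase, complex V. Most subunits are encoded in the nucleus and imported, whereas a few hydrophobic ones come from mitochondrial DNA, and beta-oxidation of fatty acids feeds electrons into this chain. Transcription of the nuclear genes is known to involve NRF1, GABP (an ETS factor) and YY1, with Ppargc1a as a coactivator.

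Promoter sequences, 250 bases before to 50 after the start in RefSeq (GRCm38.p6), were at hand for 64 of the 77 members. The motif GCGCATGC, the core bound by NRF1, was found on either strand in 11 of these 64 members (17.2%). Of 27025 RefSeq genes with a promoter, whether or not they were measured here, 824 had it (3.05%). CCGGAAG, an ETS core, was found in 17 members (26.6%) against 9.93% of these RefSeq genes, and AAGATGGCG, a YY1 core, in 6 members (9.38%) against 1.64%. The members were not set against measured genes only. CCGGAAG and AAGATGGCG share the letters AAG, at the end of the one and the start of the other, and a match is a description and not a binding site. Cycs and Cox6b1 are shown as members with an NRF1 and an ETS core in capitals. Cox7c, the member with the smallest p in FFA against Media, and Cox7a1, which varied with the replicate number, are shown in lower case because none of the 3 motifs was in their windows. Each reads 5′ to 3′ on the strand of its gene.
Cycs, chr6:50566520-50566819, minus strand: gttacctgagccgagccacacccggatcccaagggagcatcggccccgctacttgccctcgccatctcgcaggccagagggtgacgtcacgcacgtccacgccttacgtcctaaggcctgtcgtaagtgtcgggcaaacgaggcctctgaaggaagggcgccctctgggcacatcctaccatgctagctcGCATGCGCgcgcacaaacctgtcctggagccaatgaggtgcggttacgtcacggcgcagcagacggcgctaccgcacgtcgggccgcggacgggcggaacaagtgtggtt
Cox6b1, chr7:30626065-30626364, minus strand: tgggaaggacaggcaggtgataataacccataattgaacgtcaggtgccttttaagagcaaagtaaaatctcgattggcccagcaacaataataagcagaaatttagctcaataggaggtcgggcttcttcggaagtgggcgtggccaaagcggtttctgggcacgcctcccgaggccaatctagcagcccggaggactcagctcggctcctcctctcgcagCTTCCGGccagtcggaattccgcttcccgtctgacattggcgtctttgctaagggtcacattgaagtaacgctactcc
Cox7c, chr13:86046746-86047045, minus strand: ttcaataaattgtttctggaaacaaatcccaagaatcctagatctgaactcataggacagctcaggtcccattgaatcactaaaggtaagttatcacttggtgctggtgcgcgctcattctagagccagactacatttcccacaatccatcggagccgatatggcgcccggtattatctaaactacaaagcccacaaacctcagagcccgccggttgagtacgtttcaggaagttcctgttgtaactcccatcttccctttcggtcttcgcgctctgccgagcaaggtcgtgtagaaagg
Cox7a1, chr7:30183921-30184220, plus strand: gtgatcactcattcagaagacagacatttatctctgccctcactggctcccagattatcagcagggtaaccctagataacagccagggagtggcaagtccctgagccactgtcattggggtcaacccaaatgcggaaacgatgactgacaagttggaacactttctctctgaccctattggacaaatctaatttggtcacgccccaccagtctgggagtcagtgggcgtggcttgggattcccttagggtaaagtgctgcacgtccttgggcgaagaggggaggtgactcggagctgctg

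Transcripts of the respiratory chain varied little over the 12 arrays. The range from the lowest to the highest array had a median of 0.41 log2 units over the 77 members, beside 0.55 over all genes, and 51 members (66.2%) had a range under 0.5, beside 42.2% of all genes. Uqcrc2, a core protein of complex III, had the narrowest range, from 11.11 to 11.26. Atp5b, the catalytic beta subunit of ATP synthase, lay between 12.82 and 13.03 on every array. A range over 1 was seen in 3 members (3.9%), Ndufa4l2, Cox7a1 and Ndufb11, and in 13.1% of all genes. Over the members, a median of 17.4% of the sum of squares went with the treatment and 41.9% with the replicate number (18.8% and 43.7% over all genes). A grouping unrelated to the values also takes a share, and a larger one with 4 groups than with 3 numbers. The treatment share alone is therefore no sign of an effect.

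**Figure D1:**
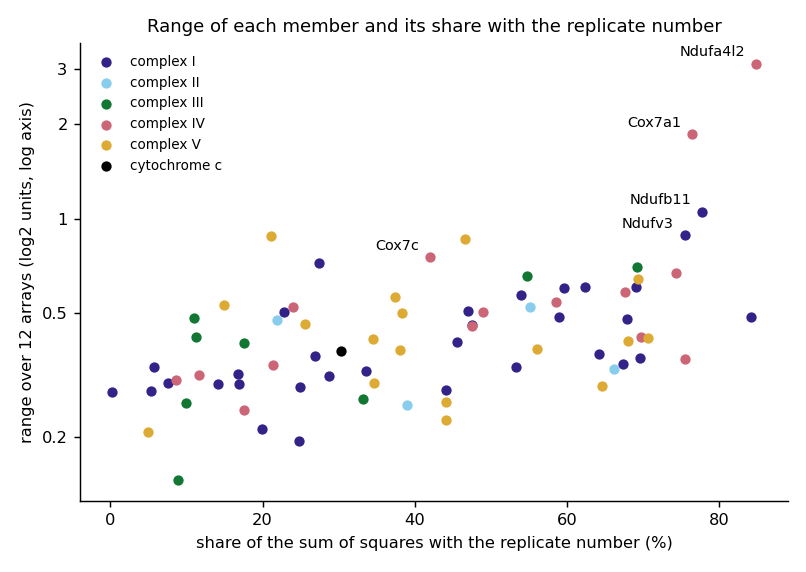
Range over the 12 arrays of each of the 77 members (log2 units, log axis) against the share of its sum of squares that went with the replicate number (percent), with colours for the complexes. Most members lie under a range of 0.5, and Ndufa4l2 (range 3.13, share 84.9%) and Cox7a1 (range 1.86, share 76.5%) stand apart at the upper right.

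FFA against Media asks what fatty acids alone do to these transcripts. Of the 77 members, 54 were higher and 23 lower in FFA, with a median difference of 0.042 log2 beside 0.0030 for all genes, and no member passed adjustment. Complex III had the highest median among the complexes (0.068, with 6 higher and 2 lower), followed by complex II (0.047, 3 and 1), complex V (0.042, 12 and 5) and complex I (0.041, 25 and 7), whereas complex IV was split (-0.0068, 7 and 8). The medians over 0 were smaller than the SD of the mean level of the same complex over the 3 FFA arrays (0.061 to 0.10). The median member difference was 0.0036 between the arrays numbered 1, 0.013 between those numbered 2 and 0.12 between those numbered 3. Without FFA replicate 3, 40 members were higher and 37 lower, with a median of 0.0043.

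By limma's moderated test over all clusters, 0 of 12995 genes tested (0.0%) passed a Benjamini-Hochberg adjusted p under 0.05 for FFA against Media, and 129 (0.993%) had an unadjusted p under 0.05, among them 1 of the 75 members tested. With the replicate block these were 2 members (2.67%) and 3.26% of all genes. Ndufs5 and Atp5j2 were not tested, since none of the 6 arrays was over 4.5. In 7 of the 75 members (9.33%) all FFA arrays were over all Media arrays, beside 3.28% of all genes, and in 0 members all were under, beside 2.53%. The 7 were Ndufb10, Ndufb5, Ndufs4, Ndufv2, Cox7c, Atp5d and Cycs.

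**Figure D2:**
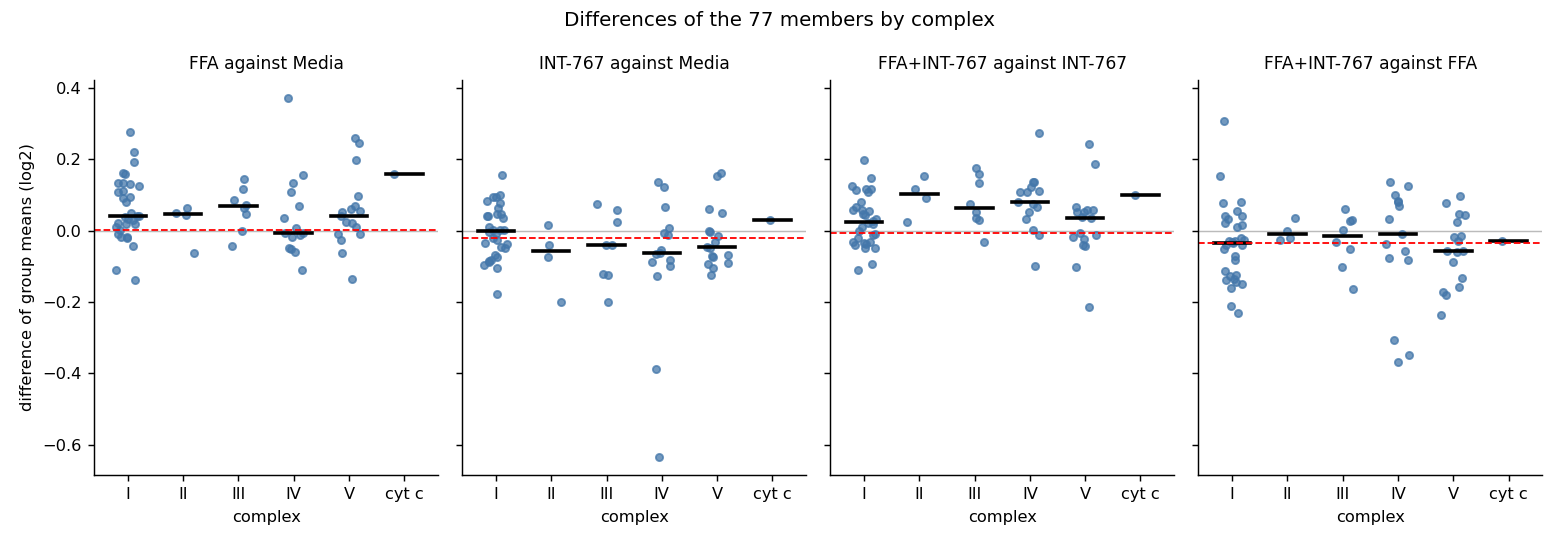
Difference of group means (log2) of each member (points) by complex in each of 4 comparisons, with the median of each complex as a black bar and the median of all genes as a red dashed line. In FFA against Media, complexes I, II, III and V have medians of 0.041 to 0.068 and complex IV of -0.0068, and the point at 0.37 is Cox7c.

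Within complex I the members were also grouped by role. The role classes follow textbook assignments made with the values known, so they carry no test, and a difference between classes was not tested. All 10 measured accessory subunits named Ndufb or Ndufc, which sit in the membrane arm, were higher in FFA, with a median of 0.11 and a range from 0.011 (Ndufb9) to 0.28 (Ndufb10). Of the 6 measured core subunits, which carry the flavin and iron-sulfur clusters or lie next to them, 3 were higher and 3 lower (median -0.0018), from -0.14 for Ndufs7 to 0.16 for Ndufv2. The 13 accessory subunits of the Ndufa class, counted with the acyl carrier protein Ndufab1, had a median of 0.022 (10 higher and 3 lower).

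Ndufb10, an accessory subunit of the membrane arm, measured 6.45, 6.71 and 6.71 in Media and 6.72, 7.03 and 6.94 in FFA. The highest Media array and the lowest FFA array lay close together, but each FFA array was higher than the Media array of its number, by 0.27, 0.32 and 0.24. Its difference of 0.28 log2 (standard error 0.14, limma adjusted p = 1.0) had an unadjusted p of 0.0864, and 0.0309 with the replicate number as a block. Ndufs4, an accessory subunit of which the loss is known from Leigh syndrome, measured 10.93, 10.79 and 10.88 in Media and 11.03, 10.94 and 11.03 in FFA, a difference of 0.13 (standard error 0.11, limma adjusted p = 1.0). Ndufv2, an iron-sulfur core subunit, measured 11.59, 11.48 and 11.62 in Media and 11.71, 11.66 and 11.79 in FFA, a difference of 0.16 (standard error 0.11, limma adjusted p = 1.0). In both genes the lowest FFA array lay only just over the highest Media array.

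Cox7c, a small subunit of complex IV, had the smallest p of the members. Its levels were 5.48, 5.71 and 5.61 in Media, 5.78, 6.08 and 6.06 in FFA, 5.59, 5.81 and 5.77 in INT-767 and 5.33, 5.77 and 5.78 in FFA+INT-767. All FFA arrays were higher than all Media arrays, while FFA+INT-767 overlapped with Media and INT-767. FFA against Media gave 0.37 log2 (standard error 0.13, unadjusted p = 0.0267, limma adjusted p = 1.0), and the pairs of arrays numbered alike gave 0.31, 0.37 and 0.44. The other genes classed as general subunits of complex IV, Cox7a2l among them, lay on both sides of 0 (4 of 10 higher, median -0.012), from -0.11 for Cox6a1 to 0.16 for Cox7b.

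Cycs, the electron carrier cytochrome c, measured 12.35, 12.43 and 12.55 in Media and 12.55, 12.57 and 12.67 in FFA. The groups touched without overlap, and the difference was 0.16 (standard error 0.11, limma adjusted p = 1.0). Cycs has 5 clusters, of which 2 carry identical values, and the others of them gave 0.25, 0.45, 0.45 and 0.032. The sequences these clusters read were not compared here. Atp5d, the delta subunit of the F1 head, measured 10.32, 10.49 and 10.40 in Media and 10.57, 10.57 and 10.86 in FFA, a difference of 0.26 (standard error 0.13, limma adjusted p = 1.0), while its other cluster gave 0.035. For Ndufa8, another accessory subunit, the 2 clusters gave 0.038 and 0.34.

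**Figure D3:**
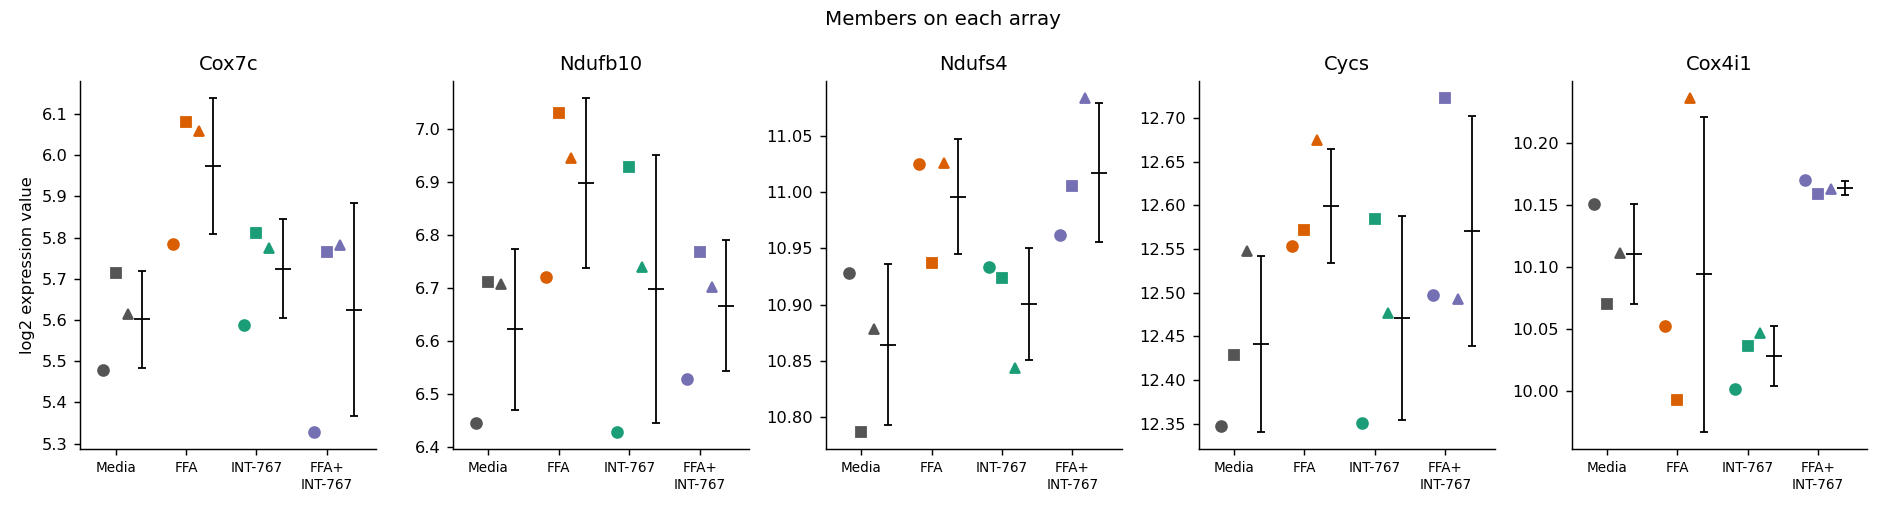
Log2 expression values of Cox7c, Ndufb10, Ndufs4, Cycs and Cox4i1 on each array by group (circles, squares and triangles for the arrays numbered 1, 2 and 3), with the group mean and SD (n = 3) at the right of each group. The vertical axes differ between genes and do not start at 0. In Cox7c the FFA arrays (5.78 to 6.08) lie over the Media arrays (5.48 to 5.71), and in Cox4i1 the FFA+INT-767 arrays lie together over those of INT-767.

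In complex II, Sdha, the flavoprotein, was 0.065 higher in FFA, the anchors Sdhc and Sdhd 0.050 and 0.044 higher, and Sdhb, the iron-sulfur subunit, had -0.064. In complex III the 4 small subunits were higher in FFA, from 0.064 for Uqcr11 to 0.15 for Uqcrb. Of the subunits with a redox centre, Cyc1 had 0.086 and Uqcrfs1, the Rieske protein, -0.0004, and of the core proteins Uqcrc2 had 0.047 and Uqcrc1 -0.044. Of the 5 genes of the F1 head, 4 were higher, with Atp5b at -0.026 as the exception.

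INT-767 against Media asks what the receptor agonist does without fatty acids. With the deposited values 29 members were higher and 48 lower in INT-767 (median -0.033), beside a median of -0.021 over all genes. This direction depended on the scaling, since shifting all arrays to the same median gave 41 higher and 36 lower (median 0.0036, all genes 0.016), and a second quantile normalization gave 34 and 43 (median -0.0054, all genes 0.0010). Complex IV had the lowest median (-0.062, 4 higher and 11 lower), then complex II (-0.058), complex V (-0.046) and complex III (-0.041), and complex I was split (-0.0022, 16 and 16).

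No gene of 13187 (0.0%) passed adjustment by limma in INT-767 against Media, 186 (1.41%) reached an unadjusted p under 0.05, as did 0 of the 76 members tested, or 2 (2.63%, beside 6.28% of all genes) with the replicate number as a block (Ndufa4l2 and Cox7a1). Ndufs5 was not tested. All INT-767 arrays lay under all Media arrays in 4 members (5.26%, beside 3.65% of all genes), Ndufs8, Uqcrc1, Cox4i1 and Atp5l, and over them in 1 (1.32%, beside 2.34%), Ndufv2. Ndufs8, an iron-sulfur core subunit of complex I, measured 10.61, 10.79 and 10.56 in Media and 10.38, 10.51 and 10.55 in INT-767. The closest arrays of the groups nearly touched, and the difference was -0.18 (standard error 0.12, limma adjusted p = 1.0). Of the 6 core subunits of complex I, 5 were lower in INT-767 and Ndufv2 was 0.16 higher, whereas 9 of the 10 Ndufb and Ndufc subunits were higher (median 0.044). In complex III, the subunits with a redox centre were lower, Uqcrfs1 by -0.20 and cytochrome c1 (Cyc1) by -0.12, and in complex II Sdhb by -0.20.

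Uqcrc1 measured 11.16, 11.18 and 11.15 in Media and 10.96, 11.08 and 11.09 in INT-767, a difference of -0.12 (standard error 0.11, limma adjusted p = 1.0). Cox4i1, the ubiquitous isoform of the regulatory subunit of complex IV, measured 10.15, 10.07 and 10.11 in Media and 10.002, 10.04 and 10.05 in INT-767, a difference of -0.082 (standard error 0.10). Of the 9 stalk and membrane subunits of ATP synthase, 8 were lower in INT-767 (median -0.071), from -0.12 for Atp5j, with Atp5j2 at 0.060 as the exception.

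FFA+INT-767 against INT-767 asks the effect of fatty acids in the presence of the agonist and shares no array with FFA against Media. Of the 77 members, 53 were higher and 24 lower with fatty acids (median 0.051, all genes -0.0061). Complex II (0.10, 4 of 4 higher), complex IV (0.079, 13 of 15) and complex III (0.062, 7 of 8) had the higher medians, and complexes V (0.035, 9 of 17) and I (0.024, 19 of 32) the lower. Without FFA+INT-767 replicate 3 the median was 0.0007, with 41 members higher, without INT-767 replicate 1 it was 0.026, and with arrays shifted to the same median it was 0.016 (43 higher, all genes -0.041).

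No gene of 13103 (0.0%) passed adjustment by limma in FFA+INT-767 against INT-767. An unadjusted p under 0.05 was reached by 79 genes (0.603%) and by 0 of 77 members, or 1 (1.3%, beside 1.92% of all genes) with the replicate block, Atp5g3, a gene of the c-ring of ATP synthase (0.24, standard error 0.15, with the block unadjusted p = 0.044 and limma adjusted p = 0.967). The arrays of the groups did not overlap in 3 members that were higher (3.9%, beside 2.29% of all genes), Ndufs4, Cox4i1 and Atp5b, and in 1 that was lower (1.3%, beside 1.91%), Ndufb5. Cox4i1 measured 10.17, 10.16 and 10.16 in FFA+INT-767, over the INT-767 arrays given above, a difference of 0.14 (standard error 0.10, limma adjusted p = 1.0). Ndufs4 measured 10.93, 10.92 and 10.84 in INT-767 and 10.96, 11.01 and 11.08 in FFA+INT-767, a difference of 0.12 (standard error 0.10). It was thus without overlap in both comparisons of fatty acids. The Ndufb and Ndufc subunits, all higher in FFA against Media, were split here (5 higher and 5 lower, median 0.0054). Conversely 10 of 11 genes classed as general subunits of complex IV, Cox7a2l among them, were higher here, all but Cox7c (-0.10).

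FFA+INT-767 against FFA asks what the agonist adds to fatty acids. With the deposited values 28 members were higher and 49 lower (median -0.029), close to the median over all genes (-0.035). A second quantile normalization gave 40 higher and 37 lower (median 0.0005), and without FFA replicate 3 the same counts were found (median 0.0039). Complex V had the lowest median (-0.056, 5 higher and 12 lower) and complex I -0.034 (11 and 21), with complexes II, III and IV between -0.016 and -0.0091. Here 8 of the 10 Ndufb and Ndufc subunits and 8 of the 9 stalk and membrane subunits of ATP synthase were lower, as were 60.4% of all genes. The FFA arrays are shared with FFA against Media, so genes higher in FFA there tend to be lower here.

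No gene of 12955 (0.0%) passed adjustment by limma in this comparison, 299 (2.31%) reached an unadjusted p under 0.05, as did 1 of the 76 members tested (all but Atp5j2), or 4 (5.26%, beside 7.93% of all genes) with the replicate block. The 1 was Ndufs5, an accessory subunit of complex I, with 4.07, 4.12 and 4.11 in FFA and 4.60, 4.37 and 4.26 in FFA+INT-767. Only 1 of these arrays, FFA+INT-767 replicate 1, was over the limit of 4.5. The gene thus entered the test only through the group where it was higher. Its p and its lack of overlap are therefore no support for a difference. Ndufs5 differed by 0.31 (standard error 0.12, unadjusted p = 0.0395, limma adjusted p = 0.958). With the replicate block, Cox7c, Ndufb10 and Atp5mpl joined it, all lower, with -0.35, -0.23 and -0.24 and limma adjusted p of 0.317, 0.383 and 0.381. The groups did not overlap in 2 members that were higher (2.63%, beside 3.57% of all genes), Ndufs5 and Ndufs7, and in 6 that were lower (7.89%, beside 4.83%), Ndufb5, Ndufb7, Ndufs3, Uqcrb, Cox7c and Atp5mpl. Atp5mpl, a small membrane subunit of ATP synthase, measured 9.18, 9.10 and 9.27 in FFA and 8.91, 8.90 and 9.02 in FFA+INT-767. Its Media arrays, at 9.16, 8.71 and 9.08, spanned both groups.

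FFA+INT-767 against Media gave 45 members higher and 32 lower (median 0.024, all genes -0.025), and complex V was the only complex with a median under 0 (-0.036). Without FFA+INT-767 replicate 3 the median was -0.017. By limma 0 of 13180 genes (0.0%) passed adjustment, and 507 (3.85%) had an unadjusted p under 0.05, but 0 of the 76 members tested. The arrays did not overlap in 7 members that were higher (9.21%, beside 4.16% of all genes), Ndufc1, Ndufc2, Ndufs4, Ndufv2, Uqcrq, Cox4i1 and Atp5d, and in 1 that was lower (1.32%, beside 5.54%), Ndufb7. Atp5d had the highest difference of the members, 0.34 (standard error 0.18, limma adjusted p = 0.947), with 10.59, 10.52 and 11.12 in FFA+INT-767, so that the arrays numbered 3 gave 0.72 and those numbered 2 gave 0.026. These comparisons share arrays with one another, and their values are given side by side.

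Over the 4 groups together, limma's moderated F test called 0 of 13556 genes (0.0%) after adjustment, with 235 (1.73%) at an unadjusted p under 0.05 and 0 of the 77 members, or 3 (3.9%, beside 7.8% of all genes) with the replicate block. Cox7c again had the smallest p among them (unadjusted p = 0.089, limma adjusted p = 1.0, without the block). The interaction, which tests whether fatty acids acted otherwise with INT-767 than without, called 0 genes (0.0%) after adjustment and reached an unadjusted p under 0.05 in 158 (1.17%) and in 1 member. That was Cox7c with -0.47 (standard error 0.20, unadjusted p = 0.0405, limma adjusted p = 1.0). The block gave it an unadjusted p = 0.0026 and a limma adjusted p = 0.943. With the block, Ndufb10 (-0.31, unadjusted p = 0.0195, limma adjusted p = 0.943) and Ndufb5 (-0.24, unadjusted p = 0.037, limma adjusted p = 0.943) were also under 0.05 before adjustment, which made 3 of 77 members (3.9%, beside 2.83% of all genes).

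Ndufa4l2 and Cox7a1 were the members with the widest spread, and it followed the replicate number. Both have a close paralog in complex IV. Ndufa4l2 is known as a target of hypoxia-inducible factor and Ndufa4 as the common subunit, and Cox7a1 is the isoform of heart and skeletal muscle and Cox7a2 the common one. Ndufa4l2 measured 7.99, 5.45 and 6.82 in Media, 7.92, 5.33 and 7.03 in FFA, 6.99, 4.86 and 6.51 in INT-767 and 6.66, 5.25 and 7.26 in FFA+INT-767. In every group the array numbered 2 was the lowest. Of its sum of squares 84.9% went with the replicate number and 7.11% with the treatment (limma F test of the number, adjusted p = 0.00214). Cox7a1 measured 7.68, 6.48 and 7.82 in Media, 7.72, 6.44 and 7.80 in FFA, 7.19, 6.05 and 7.57 in INT-767 and 6.51, 6.62 and 7.91 in FFA+INT-767. Its arrays numbered 3 were all higher than those numbered 2, and 76.5% of its sum of squares went with the number (limma adjusted p = 0.00952). Ndufa4 ranged from 10.95 to 11.26 and Cox7a2 from 11.09 to 11.45 over the same arrays.

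**Figure D4:**
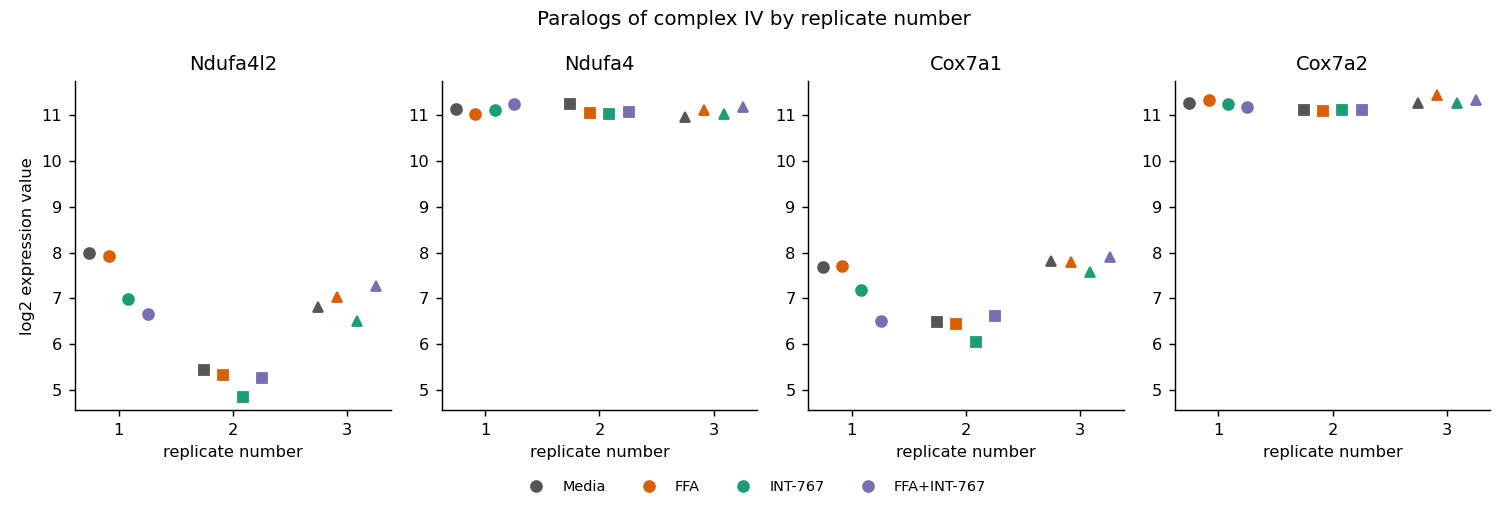
Log2 expression values of Ndufa4l2 and Cox7a1 and of their paralogs Ndufa4 and Cox7a2 on each array by replicate number, with colours for the groups. Ndufa4l2 falls between 4.86 and 5.45 on the arrays numbered 2 and between 6.51 and 7.99 on all others, whereas Ndufa4 stays between 10.95 and 11.26.

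With INT-767 alone, both were lower than in Media in each of the 3 pairs of arrays numbered alike, Ndufa4l2 by -1.004, -0.59 and -0.31 and Cox7a1 by -0.49, -0.43 and -0.25. The mean differences were -0.63 (standard error 0.76) and -0.39 (standard error 0.49), with limma adjusted p of 1.0, and of 0.536 and 0.538 with the replicate block. These standard errors are from the fit without the block. They include the spread between replicate numbers and are not the errors of the paired differences. In FFA+INT-767 against FFA the pairs of Ndufa4l2 went both ways (-1.26, -0.077 and 0.24), and so did those of Cox7a1 (-1.21, 0.18 and 0.11). The stellate cell and fibroblast markers, of which 6 of the 7 measured were called for the replicate number, had in every group their highest mean on the array numbered 1 and their lowest on that numbered 2. Between the arrays numbered 2 and 3 the widest gap was that of Dcn, at 4.97 to 5.81 and 8.26 to 8.83. In FFA, Des, Acta2, Pdgfrb, Col1a1 and Col3a1 were higher on the array numbered 2 than on that numbered 3, and Col1a2 and Dcn were lower. The group means of these markers also differed between treatments, with no adjusted p under 0.05. Of the 7, 7 were lower than in Media with INT-767 (median -0.66), with FFA (median -0.42) and with FFA+INT-767 (median -0.90), and 7 of 7 were lower in FFA+INT-767 than in FFA (median -0.48). Of all genes, 56.6% were lower in INT-767 than in Media, 49.0% in FFA than in Media and 60.4% in FFA+INT-767 than in FFA. With the replicate block, 4 of the 7 had a limma unadjusted p under 0.05 in INT-767 against Media (6.28% of all genes). In FFA against Media these were also 4 of the 7 (3.26% of all genes). The medians of the pairs numbered 1, 2 and 3 were -0.72, -0.61 and -0.41 for INT-767 against Media. For FFA against Media they were -0.80, -0.076 and -0.23, so this difference lay mainly between the arrays numbered 1. For FFA+INT-767 they were -1.49, -0.74 and -0.16 against Media and -0.60, -0.48 and -0.15 against FFA. The part of these markers in the values of Ndufa4l2 and Cox7a1 was not tested. Fewer cells of a type and less RNA per cell cannot be told apart in bulk samples.

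Across all members, 11 of 77 (14.3%) were called for the replicate number by limma at an adjusted p under 0.05, beside 26.9% of all genes (3642 of 13556). They were Ndufa1, Ndufa3, Ndufb10, Ndufb11 and Ndufv3 of complex I, Uqcrh of complex III, Cox6b1, Cox7a1, Cox7c and Ndufa4l2 of complex IV and Atp5g3 of complex V. Ndufb11, an accessory subunit of the membrane arm, lay between 5.46 and 5.82 on the arrays numbered 3 and between 4.77 and 5.30 on the others (limma adjusted p = 0.0114). Ndufv3, an accessory subunit of the NADH-oxidizing part, lay between 6.40 and 6.596 on the arrays numbered 2 and over 6.8 on the others (limma adjusted p = 0.0232).

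As a mean over its members, each complex deviated by less than 0.3 log2 units from its own mean on every array. Complex IV was lowest on the arrays numbered 2, from -0.26 to -0.17, and -0.094 to -0.057 when Cox7a1 and Ndufa4l2 were left out. FFA replicate 3 was high in all complexes, at 0.11 for complex I, 0.14 for complex II, 0.16 for complex III, 0.17 for complex IV and 0.13 for complex V, while all genes were at 0.019 on that array. FFA+INT-767 replicate 3 followed, with 0.048 to 0.20 over the complexes. INT-767 replicate 1 was low in complexes I, II, III and V (-0.15 to -0.085) and at 0.013 in complex IV, or -0.025 without Cox7a1 and Ndufa4l2.

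**Figure D5:**
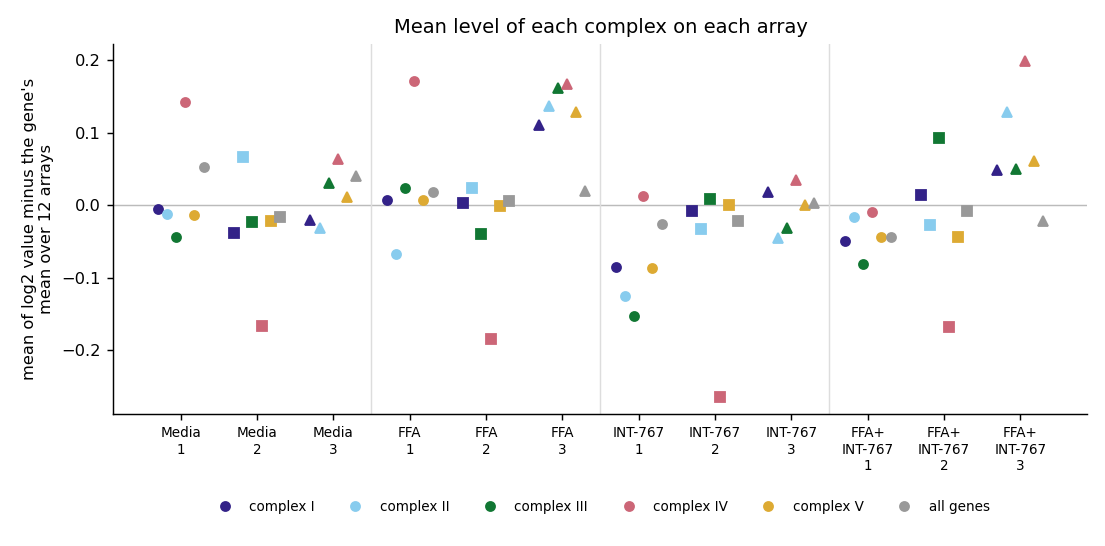
Mean over the members of each complex of the log2 value minus the gene's mean over 12 arrays, for each array (circles, squares and triangles for the arrays numbered 1, 2 and 3). FFA replicate 3 is over 0.1 in all 5 complexes, and complex IV is at -0.26 to -0.17 on the arrays numbered 2.

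Assembly factors, the proteins that build the complexes without being part of them, were measured for 45 of 48 entries. In FFA against Media 37 were higher and 8 lower (median 0.056), where 51.0% of all genes were higher, and 1 of the 45 had an unadjusted p under 0.05, beside the 0.993% of all genes given above. It was Taco1, a translational activator of mitochondrial COX1 (0.39, standard error 0.12, unadjusted p = 0.0142, limma adjusted p = 1.0). Sdhaf1, which helps to insert iron-sulfur clusters into Sdhb, had 0.24 (standard error 0.10, limma adjusted p = 1.0) and Nubpl, an iron-sulfur factor for complex I, 0.36 (standard error 0.17). In FFA+INT-767 against FFA 34 of the 45 were lower (median -0.061), as were 60.4% of all genes (median -0.035).

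The subunits encoded by mitochondrial DNA were measured for 10 genes. Their mean level was 13.02 to 13.15 on every array. All 10 were higher in FFA than in Media (median 0.053), from 0.0036 for CYTB to 0.23 for ND6, the subunit encoded on the other strand from the rest (limma adjusted p = 1.0). Of all genes 51.0% were higher there, and the pairs numbered 1, 2 and 3 had medians of 0.044, 0.039 and 0.089. All 10 were also higher in INT-767 than in Media (median 0.037, 43.4% of all genes higher) and in FFA+INT-767 than in INT-767 (median 0.036, 47.5% of all genes higher). The medians of the pairs numbered 1, 2 and 3 were -0.043, 0.073 and 0.081 in the former. In the latter they were 0.10, -0.011 and 0.0019, so neither direction held in all pairs. The nuclear members had medians of -0.033 and 0.051 in these comparisons. Mitochondrial transcripts share a few polycistronic precursors, so these genes are not independent of each other.

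Of the 17 measured regulators of mitochondrial biogenesis, 9 were higher and 8 lower in FFA (median 0.051), with Ppargc1a, the coactivator, at -0.13 and Tfam, the mitochondrial transcription factor, at 0.15. In INT-767 against Media Ppargc1a had -0.51 (standard error 0.25, unadjusted p = 0.0832, limma adjusted p = 1.0) and its relative Pprc1 -0.32 (standard error 0.20). All INT-767 arrays lay under all Media arrays in Ppargc1a and Gabpb1 (11.8%, beside 3.65% of all genes). With the replicate block, 2 of the 17 had a limma unadjusted p under 0.05 there, beside 6.28% of all genes. In the blocked test of the 4 groups 5 of the 17 did, beside 7.8% of all genes. The smallest adjusted p with the block were 0.603 and 0.438. Among 15 measured genes of other electron carriers, which hand electrons to ubiquinone or make it, 11 were higher in FFA (median 0.10). The electron transfer flavoprotein, which takes electrons from beta-oxidation, had 0.11 for Etfa and 0.21 for Etfb, and its dehydrogenase Etfdh 0.18, none of them past an unadjusted p of 0.05.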

How the data were processed

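Gene expression of TSEC was measured on 12 Affymetrix arrays. The authors computed the deposited log2 values in Partek Genomics Suite 6.6, named GC-RMA by the methods but RMA by the submitters' processing notes, and the deposited table holds clusters over 4.5 on at least 1 array (26076 clusters, 14317 with 1 symbol). Samples were grouped by their labels. Only 3 arrays per group limit the precision.

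The deposited values were tested in R 4.3.3 with limma 3.58.1, on the 6 arrays of each pair of groups without a block, over clusters above 4.5 on at least 1 of them, with Benjamini-Hochberg adjustment over all clusters. The F test over the 4 groups and the interaction used 12 arrays. All standard errors given are from fits without the replicate block. The test of the replicate number (12 arrays, with the groups) was added after the data were seen. Same-numbered arrays of different groups had correlated deviations from their group means in all 18 pairs (r = 0.1971 to 0.5351, and -0.4534 to 0.0464 in the 36 other pairs), so the numbers pair the arrays. Members, lists and role classes were chosen with earlier results of these data known. By rule, 36 members were named, those with the smallest p of their complex (4 in the test of the 4 groups and 1 in every other comparison), families with paralogs of other tissues or states, Cycs and Cyc1. Others named, such as those without overlap between groups, were chosen after their values were seen. The fits were tested on simulated data. Chromosomes, promoter sequences and their build are from RefSeq. Alternatives are given in the closing section. Protein and animal experiments were not analysed here.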

Additional observations from a re-analysis of the deposited data

Results flagged for a closer look

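In 4 members every same-numbered pair of arrays moved one way under a contrast and the opposite way under the same contrast in the other background. This criterion itself is no test of the difference, and the interaction of the 12-array fit gives the test. No share of all genes meeting this criterion is at hand, so the count of 4 does not set these members apart. Cox7c had 0.12 in INT-767 against Media and -0.35 in FFA+INT-767 against FFA (interaction -0.47, limma unadjusted p = 0.0405, adjusted p = 1.0). Ndufb5, an accessory subunit of complex I, had 0.13 in FFA against Media and -0.11 in FFA+INT-767 against INT-767, or 0.10 in INT-767 against Media and -0.14 in FFA+INT-767 against FFA (interaction -0.24, limma unadjusted p = 0.0707, adjusted p = 1.0). Atp5g3, a c-ring gene of ATP synthase, had -0.048 in INT-767 against Media and 0.097 in FFA+INT-767 against FFA (interaction 0.15, limma unadjusted p = 0.544). Cox6a1, a subunit of complex IV, had -0.065 and 0.12 in the same comparisons (interaction 0.19, limma unadjusted p = 0.362).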

How the results depend on the processing

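The counts of genes called after adjustment stayed at 0 under the alternatives with all arrays kept. Members at an unadjusted p under 0.05 numbered 1 for FFA against Media and 2 with the replicate block, with an unmoderated test or with 12 arrays and the replicate block. INT-767 against Media had 0, and 2 with the block or unmoderated. FFA+INT-767 against INT-767 had 0, 1 with the block (also on 12 arrays) and 2 unmoderated. FFA+INT-767 against FFA had 1, 0 with a filter of 3 arrays, 4 with the block, 2 with a trend and robust prior, 4 unmoderated, 2 on 12 arrays and 5 on 12 arrays with the block. FFA+INT-767 against Media had 0, 3 unmoderated, 1 on 12 arrays and 3 on 12 arrays with the block. The 4 groups had 0, 3 with the block and 2 unmoderated, and the interaction 1, 3 with the block, 0 with a trend and 3 unmoderated. Over these comparisons the share of all genes at that p was 0.603% to 3.85%, 1.92% to 7.93% with the block, 1.66% to 4.36% unmoderated, 0.598% to 4.02% with the filter, 0.473% to 3.76% with the trend, 0.885% to 5.41% on 12 arrays and 2.47% to 14.6% there with the block. With the replicate block the members' share was lower than that of all genes in 6 of 7 comparisons, the interaction being the exception. The member median of FFA+INT-767 against INT-767 was 0.051, and 0.016 with arrays shifted to the same median, and members called for the replicate number were 11, and 17 under that shift. Leaving out 1 array gave 0 to 1 clusters called for the 4 groups and for the interaction (1 without Media replicate 3), 0 to 2 members at an unadjusted p under 0.05 for FFA against Media and the interaction and 0 to 1 for FFA+INT-767 against FFA. The member median ranged from 0.0007 to 0.066 for FFA+INT-767 against INT-767, from 0.0043 to 0.063 for FFA against Media and from -0.038 to 0.033 for the interaction, and members and clusters called for the replicate number from 4 to 10 and 3055 to 4595. Of 318 complex medians under alternatives 35 moved by more than the spread between replicates. The causes were not tested. The 12-array fits with block, the test of the number and the counts without each array were chosen after seeing the data.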
